A study of Mus musculus with 34 samples.

Results

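Promoter H3K4me3 was described at 10 genes of the Bcl2 family, the proteins that decide whether the mitochondrial outer membrane is breached in apoptosis. The members were listed by name and role, and the value of each was the mean H3K4me3 signal within 1000 bp of the 5′ end of the gene (GENCODE M21, mm10). They were 10 of 21938 protein-coding genes measured in the same way, and 9 of them were among the 9930 promoters whose signal averaged 2 or more across the 4 libraries and were therefore tested. Bbc3 was the member below that level. Trimethylation of lysine 4 of histone H3 marks the promoters of active genes, and the signal is the depth of sequenced DNA fragments per base, scaled to the same number of tags in every library.

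The family works by protein binding. Pro-survival members (Bcl2, Bcl2l1, Mcl1) hold the effectors Bax and Bak1 in check, and the effectors form pores in the outer membrane once they are released, so that cytochrome c reaches the cytosol and caspases are activated. BH3-only members (Bid, Bad, Bbc3, Pmaip1, Bcl2l11) sense damage, loss of growth factors or death receptor signals, and bind pro-survival proteins or activate the effectors. In the intestine, cells are shed at the villus tip, and damaged crypt cells die by a p53-dependent route in which Bbc3 (PUMA) is a known player.

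H3K4me3 was profiled by CUT&RUN, in which an antibody directs protein A fused to micrococcal nuclease to the mark and the nuclease releases the DNA around it. Villus cells were scraped from the small intestine of wild-type and ApcMin/+ mice, all on the C57BL/6J background and 5 weeks old by the sample labels but 6 weeks by the methods, with 2 libraries per genotype. ApcMin/+ mice are heterozygous in every cell for a truncating mutation of Apc, a negative regulator of Wnt signalling, and the tissue was taken from normal-looking mucosa before tumours were visible. The question was whether chromatin differs between the genotypes at this early stage. The methods list 2 mice of each genotype at this age, but neither they nor the labels tie a library to a mouse.

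The libraries differed in ways that reach every promoter. The wild-type libraries held 1430000 tags (replicate 1) and 4790000 tags (replicate 2), and the ApcMin/+ libraries 3700000 and 5470000. In the same order, regions of enrichment, called on the mean of the 4 libraries, held 21.5%, 11.5%, 42.8% and 15.8% of the signal. Signal outside them and farther than 5000 bp from gene starts was 0.283, 0.323, 0.199 and 0.300. The median tested promoter had a signal of 4.53, 3.06, 13.2 and 4.18 in that order. ApcMin/+ replicate 1 thus stood apart from the other 3 libraries, and it was the highest library at 98.6% of the tested promoters. For that reason the difference of each tested member is given as deposited, relative to the median promoter of each library, and with that library left out. Enterocyte markers carried the mark at 7 of 9 promoters, with summed signals of 52.7 and 28.0 in wild type and 128 and 36.2 in ApcMin/+. Crypt markers passed the signal filter at 2 of 5 promoters (Axin2 and Smoc2). Their summed signals were 7.19 and 4.27 in wild type and 14.6 and 7.61 in ApcMin/+. Secretory markers passed it at 1 of 7 (Atoh1), with 6.31 and 4.36 in wild type and 11.9 and 8.17 in ApcMin/+. Leukocyte markers passed the signal filter at 0 of 9 promoters, with summed signals of 5.69 to 9.40 in wild type and 6.31 to 10.3 in ApcMin/+, and mesenchyme markers at 0 of 7, with 3.47 to 4.38 and 5.29 to 8.33. Scraped villi hold several cell types, and in such bulk material fewer marked cells and less signal per cell cannot be told apart.

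The DNA at these starts ranged from dense CpG islands to sequence without a single CpG. The 250 bases before the start site annotated by RefSeq are printed below for 4 members, 5′ to 3′ on the strand of the gene, with each CpG in capitals. Bcl2 and Mcl1 are shown as CpG-rich starts with unlike signal, Bax as a start with fewer CpGs, and Bbc3 before its GENCODE 5′ end and before its RefSeq start, because signal was near 0 at the former and present at the latter. The genome is mm10 (GRCm38), read from the RefSeq assembly of that build.

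Bcl2, chr1:106714291-106714540, minus strand: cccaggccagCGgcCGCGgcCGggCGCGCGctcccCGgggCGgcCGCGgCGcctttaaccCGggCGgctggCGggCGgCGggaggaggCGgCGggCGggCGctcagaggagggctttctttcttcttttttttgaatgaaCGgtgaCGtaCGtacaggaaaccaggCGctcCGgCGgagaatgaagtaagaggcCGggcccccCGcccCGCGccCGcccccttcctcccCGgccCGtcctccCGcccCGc

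Mcl1, chr3:95658471-95658720, plus strand: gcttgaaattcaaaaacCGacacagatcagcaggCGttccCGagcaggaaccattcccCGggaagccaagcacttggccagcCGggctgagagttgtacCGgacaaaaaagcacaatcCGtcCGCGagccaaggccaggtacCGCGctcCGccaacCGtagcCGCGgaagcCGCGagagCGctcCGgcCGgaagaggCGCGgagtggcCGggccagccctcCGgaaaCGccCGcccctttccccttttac

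Bax, chr7:45466899-45467148, minus strand: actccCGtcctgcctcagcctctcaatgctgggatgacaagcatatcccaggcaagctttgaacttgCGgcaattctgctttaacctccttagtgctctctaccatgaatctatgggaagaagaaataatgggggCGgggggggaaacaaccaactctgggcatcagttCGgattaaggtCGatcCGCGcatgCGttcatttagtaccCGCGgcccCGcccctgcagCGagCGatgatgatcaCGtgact

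Bbc3 before the GENCODE gene 5′ end, chr7:16308143-16308392, plus strand: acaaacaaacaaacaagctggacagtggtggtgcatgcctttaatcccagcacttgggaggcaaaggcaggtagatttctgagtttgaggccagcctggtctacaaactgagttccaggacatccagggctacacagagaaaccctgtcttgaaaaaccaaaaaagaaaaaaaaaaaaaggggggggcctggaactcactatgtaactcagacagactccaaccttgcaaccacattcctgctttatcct

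Bbc3 before the RefSeq start, chr7:16309333-16309582, plus strand: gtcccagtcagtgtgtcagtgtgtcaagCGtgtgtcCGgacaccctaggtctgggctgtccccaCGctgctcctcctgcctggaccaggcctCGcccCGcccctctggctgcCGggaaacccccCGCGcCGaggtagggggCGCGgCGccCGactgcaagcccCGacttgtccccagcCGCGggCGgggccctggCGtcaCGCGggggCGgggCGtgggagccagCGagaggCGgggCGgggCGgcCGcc

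The first 3 of these stretches held 36, 26 and 14 CpGs. Before the 5′ end of Bbc3 that GENCODE gives there were 0 CpGs and a GC content of 46.4%, and before its RefSeq start, 1190 bp downstream, there were 27 CpGs and a GC content of 76.4%. The RefSeq stretch lies inside the region that carried the mark, chr7:16309201-16310100.

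Within 1000 bp of the 5′ end, the ratio of observed to expected CpGs was highest at Mcl1 (0.855), followed by Bcl2 (0.785), Bcl2l11 (0.782) and Pmaip1 (0.780). Bcl2l1 had 0.694, Bad 0.678, Bid 0.574 and Bax 0.490, and the lowest ratios were those of Bbc3 (0.272) and Bak1 (0.263). The median was 0.640 over promoters past the signal filter and 0.236 over those below it. Bak1 and Bbc3 were thus near the ratio of promoters below the filter, and their highest bin of H3K4me3 lay 1300 bp downstream of the annotated 5′ end, with Bak1 keeping its low ratio (0.266) and Bbc3 rising to 0.50 at their start of highest signal.

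RefSeq promoters of 300 bases, from 250 bases before the start to 50 after it, were found for 9 of the 10 members, all but Pmaip1. Searched on both strands, the GC box GGGCGG was present in 7 of the 9 (35.6% of 32817 RefSeq promoters held it), with 7 copies at Bcl2, 5 at Bbc3, 4 at Bad, 3 each at Bax, Bid and Bcl2l11, and 1 at Mcl1. The TATA box TATAAA was in 0 of the 9 (13.6% of all promoters), and the CCAAT box CCAAT in 1, that of Bcl2l11 (37.4%). The E-box CACGTG was found at Bax (7.15%), and the TCF/LEF motif ATCAAAG in 0 of the 9 (3.73%). The 9 promoters held from 11 CpGs (Bak1) to 44 (Bcl2), beside a median of 7 over all RefSeq promoters. The shares over all promoters were not matched for base composition, and the GC box itself contains a CpG. A full p53 site was searched for as a pair of half-sites separated by at most 13 bases, with no mismatch allowed. It was found in 0 of the 10 windows of 1000 bp on each side of the GENCODE 5′ end, and in 0.474% of all windows. At Bbc3 the RefSeq start, 1190 bp downstream of that end, lay outside the window. Imperfect sites and sites beyond the windows would be missed. The letters describe these windows only and not where a factor binds.

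Among the pro-survival genes, Bcl2l1 and Mcl1 had more signal than Bcl2 in all 4 libraries, and in wild-type replicate 2 both were below the median tested promoter (3.06). Bcl2l1 (chr2:152780668-152831728, minus strand), which encodes Bcl-xL, had a signal of 7.68 and 2.92 in the 2 wild-type libraries and of 24.1 and 5.08 in the 2 ApcMin/+ libraries, replicate 1 first here and in what follows. These values rest on 22, 27.9, 178.3 and 55.6 fragments. The second ApcMin/+ library lay between the wild-type libraries, and the difference as deposited was 1.08 on the log2 scale (SE 1.18).

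Mcl1 (chr3:95658788-95663176, plus strand), which encodes a short-lived pro-survival protein that cells must make continuously, had 5.92 and 2.26 in wild type and 18.5 and 4.95 in ApcMin/+. The groups overlapped, and the difference of 1.18 (SE 1.09) was the highest of the 9 tested members. Bcl2 (chr1:106538178-106714274, minus strand), the founding member, had 1.74 and 1.67 in wild type and 5.28 and 2.57 in ApcMin/+. Here both ApcMin/+ libraries were above both wild-type libraries, which themselves differed little (mean 1.71 ± 0.0525, SD, n = 2), but only 5 and 16 fragments underlie the wild-type values, and the difference was 0.81 (SE 0.69).

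Of the effectors, Bak1 had more signal than Bax in 3 of 4 libraries, and they were alike in wild-type replicate 2. Bax (chr7:45461697-45466898, minus strand) had a signal of 1.74 and 2.68 in wild type and of 4.61 and 2.49 in ApcMin/+. Bak1 (chr17:27019810-27029009, minus strand) had 8.37 and 2.63 in wild type and 13.3 and 3.42 in ApcMin/+. In both genes the second ApcMin/+ library fell inside the wild-type range, and their differences of 0.48 (SE 0.71) and 0.45 (SE 1.06) were the lowest of the tested members in this window. With a window of 500 bp the difference of Bak1 was 1.05 (SE 0.69) and that of Bcl2l11 was the lowest, at 0.65. Bak1 was the member at which ApcMin/+ replicate 2 was farthest below the wild-type mean, at 0.621 of it.

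Among the BH3-only genes, Pmaip1 had the highest mean signal of the family at the 5′ end, although 4 members were above it in wild-type replicate 1, and Bbc3 had the lowest. Pmaip1 (chr18:66458533-66465565, plus strand), which encodes NOXA, a binder of Mcl1, had 6.29 and 5.67 in wild type and 25.5 and 7.75 in ApcMin/+, with 18, 54.2, 189.2 and 84.9 fragments. Both ApcMin/+ libraries were above both wild-type libraries, and this was also so relative to the median promoter. The margin there was narrow, with 0.758 in ApcMin/+ replicate 2 and 0.715 in wild-type replicate 2 (log2). The difference of Pmaip1 was 1.13 (SE 1.24) as deposited and 0.28 (SE 0.29) relative to the median promoter.

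Bid (chr6:120891930-120916853, minus strand), which is cleaved by caspase 8 and links death receptors to mitochondria, had 7.16 and 3.44 in wild type and 17.6 and 4.89 in ApcMin/+. Bad (chr19:6941861-6951899, plus strand), which is held inactive by growth factor signalling, had 6.51 and 5.45 in wild type and 22.1 and 4.89 in ApcMin/+. Bad was the member at which ApcMin/+ replicate 2 was below both wild-type libraries while replicate 1 was far above them. Bcl2l11 (chr2:128126038-128162547, plus strand), which encodes BIM, had 4.82 and 4.26 in wild type and 12.4 and 4.42 in ApcMin/+, and the wild-type libraries were close to each other and to the second ApcMin/+ library.

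Bbc3 (chr7:16308393-16318205, plus strand), which encodes PUMA, had 0.912 and 0.183 in wild type and 0.229 and 0.943 in ApcMin/+. These values rest on 2.6, 1.7, 1.7 and 10.3 fragments, so no difference between the genotypes was detectable at this start, and Bbc3 was the exception among the members in that ApcMin/+ replicate 1 was not its highest library. The other 9 members shared that library as their highest.

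**Figure D1:**
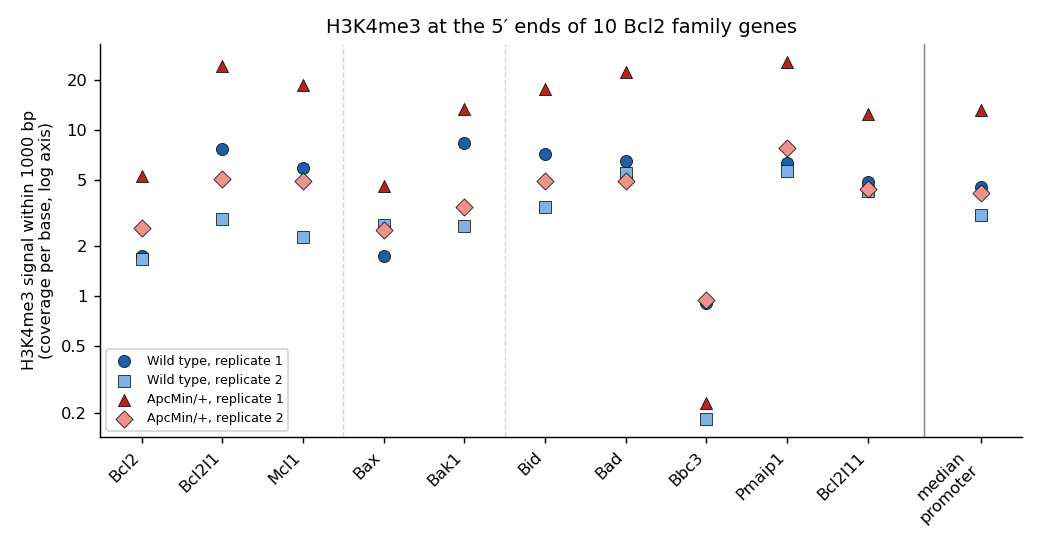
H3K4me3 signal (coverage per base, log axis) within 1000 bp of the 5′ end of each of the 10 genes, 1 symbol per library, with the median tested promoter of each library at the right; dashed lines separate the pro-survival, effector and BH3-only genes. ApcMin/+ replicate 1 is the highest library at 9 of the 10 genes and at the median promoter (13.2), and Bbc3 lies below 1 in all 4 libraries.

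The order of the mean levels over the 4 libraries was Pmaip1 (11.3), Bcl2l1 (9.94), Bad (9.74), Bid (8.28), Mcl1 (7.92), Bak1 (6.94), Bcl2l11 (6.48), Bax (2.88), Bcl2 (2.82) and Bbc3 (0.567). Windows were of equal length, so these levels per base can be set beside each other. Of the 9 pairs of neighbours in that order, Bcl2l11 above Bax and Bcl2 above Bbc3 kept their order in 4 of 4 libraries, and the other 7 pairs kept it in 2 or 3 of 4. Bbc3 was the lowest member in 4 of 4 libraries, while Bax was the rank 6 of 10 in wild-type replicate 2, above Bak1 and Mcl1, and the rank 8 or 9 in the other 3 libraries. Among all 21938 promoters, Pmaip1 was at the percentile 87.8 and 97.2 in wild type and 95.8 and 97.7 in ApcMin/+. Bcl2 stayed between the percentiles 55.5 and 61.9 and Bax between 55.6 and 72.3 over the 4 libraries.

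Between the genotypes, no member passed the test. With limma and Benjamini-Hochberg adjustment over the 9930 promoters, 0 of the 9 tested members had an adjusted p under 0.05, beside 0.0% of all tested promoters. At an unadjusted p under 0.05 there were 132 promoters, with 0 members among them. The members had limma adjusted p-values of 0.683 to 0.719, and the 95% intervals of their differences were wide, from -1.24 to 3.40 at Bcl2l1 and from -0.55 to 2.16 at Bcl2. All 9 differences were above 0, as were 99.2% of those of all tested promoters, and the median member difference of 0.80 was close to the median of 0.85 over all tested promoters. An exact permutation test of 2 libraries against 2 cannot give a p below 0.333.

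Relative to the median promoter of each library, the members were on both sides of 0. Mcl1 had 0.33 (SE 0.28), Pmaip1 0.28 and Bcl2l1 0.23 (SE 0.28), while Bak1 had -0.41 (SE 0.29) and Bax -0.38 (SE 0.45). Bcl2l11 had -0.23, Bad -0.11, Bid -0.05 and Bcl2 -0.05. None of the 9 passed the test (limma adjusted p = 1.00 for each, rounded), beside 0.121% of all tested promoters, and 0 of them had an unadjusted p under 0.05 (294 promoters did). The median of the members was -0.05, and their 95% intervals reached from -0.97 to 0.16 at Bak1 and from -0.23 to 0.89 at Mcl1.

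The count of members whose groups did not overlap depended on the scaling as well. As deposited, both ApcMin/+ libraries exceeded both wild-type libraries at 2 of the 9 tested members (Bcl2 and Pmaip1), beside 38.5% of all tested promoters. Relative to the median promoter this was so at 1 member (Pmaip1), beside 13.1%, and both ApcMin/+ libraries were below at 1 member (Bcl2l11), beside 14.3%. With 9 members, these counts are near what those shares give. Both separations relative to the median promoter were narrow, at Bcl2l11 with 0.066 in ApcMin/+ replicate 2 and 0.074 in wild-type replicate 1 (log2). With a window of 500 bp, both ApcMin/+ libraries exceeded both wild-type libraries at 5 of 9 members, beside 37.0% of the 10206 promoters tested there.

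One library decided the size of the differences. Without ApcMin/+ replicate 1, the member differences ranged from -0.40 to 0.40 with a median of 0.06 (0.13 over all promoters), 5 above 0 and 4 below. Bcl2 then had 0.40, Pmaip1 0.33, Mcl1 0.33, Bax 0.14 and Bcl2l1 0.06, while Bcl2l11 had -0.03, Bid -0.03, Bad -0.24 and Bak1 -0.40. Without ApcMin/+ replicate 2, the median was 1.63, and Bcl2, Bcl2l1, Mcl1, Bid and Pmaip1 passed the test, which is 5 of 9 members beside 65.2% of all promoters called higher. In these fits the lone ApcMin/+ library is assumed to vary as the wild-type libraries do.

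**Figure D2:**
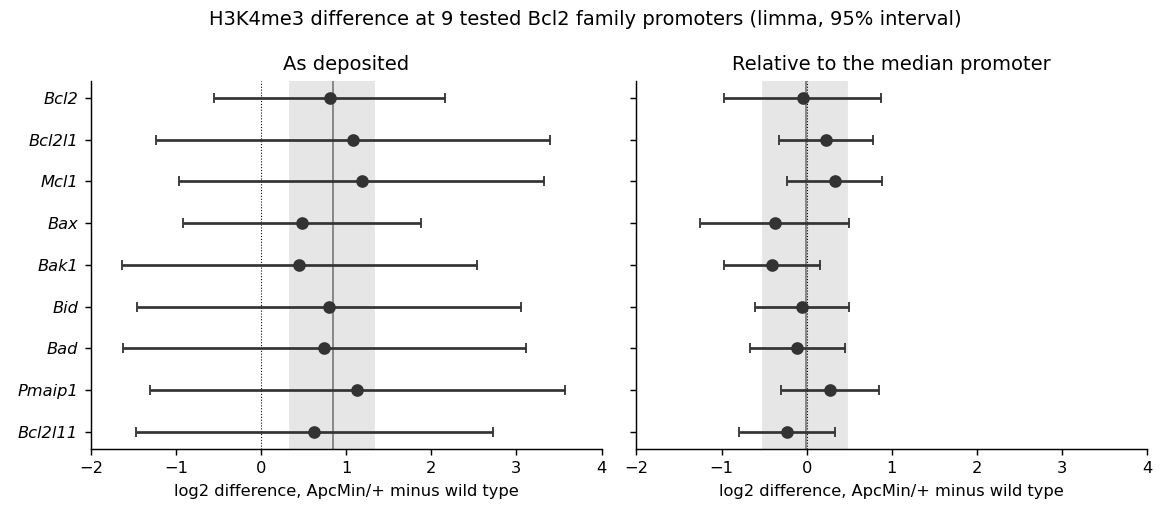
Difference in promoter H3K4me3 (ApcMin/+ minus wild type, log2 of signal + 1) of the 9 tested members with limma 95% intervals, as deposited at the left and relative to the median promoter at the right. The grey line is the median of all 9930 tested promoters and the grey band spans their 5th to 95th percentiles; every interval crosses 0 in both panels.

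The members differed in the position of the mark relative to the 5′ end. In the mean of the 4 libraries the bin of highest signal began 200 bp downstream of the 5′ end at Bcl2, 180 bp at Bcl2l1, 160 bp at Bax, 140 bp at Bid and 420 bp at Bad, and 240 bp upstream of it at Mcl1. It lay beyond the window of 1000 bp at 4 members, 1040 bp downstream at Bcl2l11, 1140 bp at Pmaip1 and 1300 bp at both Bbc3 and Bak1, but at Pmaip1, Bcl2l11 and Bbc3 it was inside the window in some libraries. At Mcl1 the highest bin of single libraries lay upstream only in ApcMin/+ replicate 2, where it began 320 bp from the 5′ end. It began 840 and 1680 bp downstream in wild-type replicates 1 and 2, and 1280 bp downstream in ApcMin/+ replicate 1. At Bak1 the highest bin of the mean had a signal of 62.2, the highest of any member. The highest Bak1 bin was within the same 40 bp in all 4 libraries. The annotated Bak1 transcript start with the highest signal, 431 bp downstream of the 5′ end, had 15.4 and 4.88 in wild type and 30.2 and 6.75 in ApcMin/+, which is 2.06 times the mean at the 5′ end.

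At Bbc3 the difference between starts was larger still. Signal was nearly absent at the GENCODE 5′ end and began close to the RefSeq start whose CpG-rich bases are printed above. The protein-coding transcript that starts 1223 bp downstream of the 5′ end had 3.83 and 1.76 in wild type and 4.46 and 2.52 in ApcMin/+. The start of a retained-intron transcript 5124 bp downstream had 4.90 and 4.19 in wild type and 16.6 and 3.56 in ApcMin/+, a mean 12.9 times that at the 5′ end. The protein-coding starts 1223 and 2062 bp downstream had means of 3.14 and 2.92, near the 5′-end means of Bax (2.88) and Bcl2 (2.82). Bbc3 was thus also among the lower members at its protein-coding starts. Its retained-intron start, the highest of its annotated starts, had a mean of 7.31, above the 5′-end means of Bak1 (6.94) and Bcl2l11 (6.48).

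At the start of highest signal, all 10 members passed the filter, and their differences between the genotypes ranged from 0.59 to 1.18 (Bbc3 0.70, SE 1.09). None passed the limma test there (adjusted p of 0.682 to 0.689), beside 0.0% of the 10796 promoters tested, and at an unadjusted p under 0.05 there were 153 promoters with 0 members among them. Bcl2l1 gained 1.35 times in mean signal at a start 1062 bp downstream and Bcl2 1.22 times at one 1095 bp downstream. The remaining 6 members changed by at most 1.06 times.

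**Figure D3:**
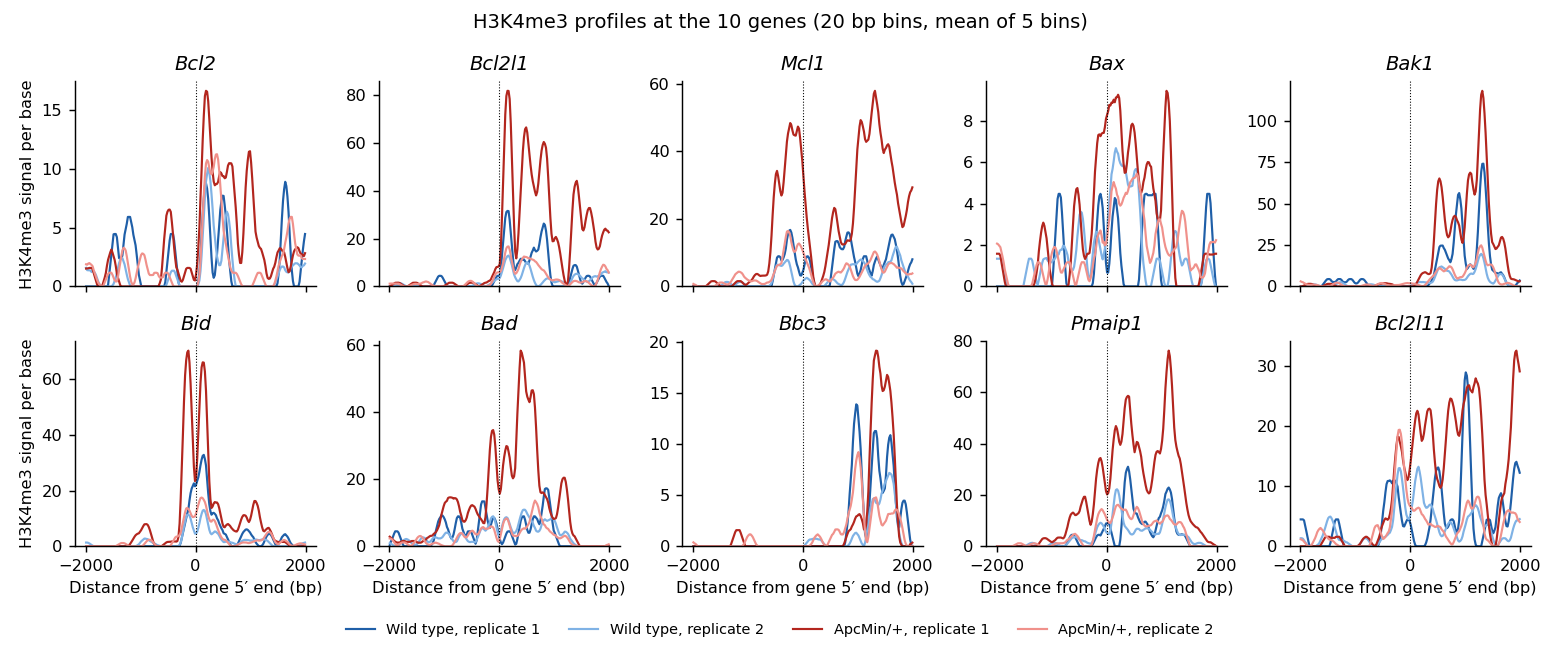
H3K4me3 signal per base around the 5′ end of each gene (dotted line), in bins of 20 bp smoothed over 5 bins, 2000 bp to each side in the direction of transcription, 1 line per library; each panel has its own vertical scale. The signal of Bak1 and Bbc3 rises downstream of the annotated 5′ end, with the highest bin of the mean 1300 bp downstream at both.

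Regions of enrichment, called once on the mean of the 4 libraries as stretches above a signal of 1.83 (5 times the genome mean), differed in length by 6 times among the members. The region within 1000 bp of the 5′ end was compared with the regions holding 10692 protein-coding gene starts, counted once per start. At Bcl2, Bak1 and Bbc3 the region lay beside the 5′ end and did not contain it. At Mcl1 it was 5400 bp long, longer than the region at 97.6% of those starts. It ran from chr3:95658201 to 95663600 over the whole Mcl1 gene of 4389 bp. Bcl2l1 had 4400 bp (94.7%) and Bak1 3800 bp (91.1%), the latter inside Bak1 and also overlapping the gene Ggnbp1. Bcl2l11 had 2900 bp, Bcl2 2700 bp, Bad 2500 bp, Pmaip1 2400 bp and Bid 2000 bp, all above the median of 1900 bp. Bax with 1400 bp and Bbc3 with 900 bp were below it. Bcl2 was thus low in signal and yet not narrow, while Pmaip1, with the highest mean signal at the 5′ end, had a shorter region than Bcl2.

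Further regions lay inside or beside some members. In Bbc3 a region of 3600 bp (chr7:16311001-16314600), over exons of the gene, had 5.34 and 3.37 in wild type and 12.2 and 2.75 in ApcMin/+. At the 3′ end of Bax a region of 3600 bp (chr7:45458401-45462000) covered the start of Ftl1, the ferritin light chain gene, which begins 7014 bp from the start of Bax. The Ftl1 promoter had 6.61 and 4.71 in wild type and 20.5 and 4.54 in ApcMin/+, well above Bax in every library. At the 3′ end of Bad a region of 4300 bp (chr19:6949101-6953400) was shared with Plcb3.

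The windows of 2 members overlapped those of neighbours. Gpr137 starts 619 bp from Bad on the other strand, and its window had 5.23 and 5.41 in wild type and 20.8 and 4.55 in ApcMin/+, nearly the values of Bad. The signal of Bad can therefore not be assigned to Bad alone. Bid shares bases of its window with Gm44260, an unconfirmed transcript that begins 1860 bp downstream of the Bid start on the same strand.

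Other Bcl2 relatives and the rest of the apoptosis pathway were read from 10 lists with 44 genes, of which 36 passed the signal filter. With limma, 0 of the 36 passed the test as deposited and 0 relative to the median promoter, where their median was -0.05 and their range -0.82 to 0.64. At an unadjusted p under 0.05 there was 1 gene in each fit, Bcl2l15 as deposited and Ripk1 relative to the median promoter. Both ApcMin/+ libraries exceeded both wild-type libraries at 4 of the 36 relative to the median promoter (13.1% of all tested promoters) and fell below at 9 (14.3%). As deposited they exceeded them at 11 (38.5% of all) and fell below at 0. The list of cytochrome c, Apaf1 and the caspases around them passed the filter at 7 of 7 promoters, and among the other pro-survival relatives only Bcl2l2 (BCL-W) passed the filter, 1 of 5.

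The genes farthest above the median promoter were Bcl2l15, a Bcl2 relative expressed in the gut, and Casp8, the initiator caspase of death receptors. Bcl2l15 had 0.697 and 1.34 in wild type and 9.53 and 2.003 in ApcMin/+, both ApcMin/+ libraries above both wild-type ones (0.64, SE 0.51). Casp8 had 2.42 and 2.99 in wild type and 18.2 and 3.81 in ApcMin/+ (0.53, SE 0.30). The first of these wild-type values rests on 2 fragments at Bcl2l15 and 6.9 at Casp8.

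The genes farthest below were Ripk1, a kinase at the junction of survival and necroptosis signalling, and Endog, a mitochondrial nuclease. Ripk1 had 11.05 and 4.93 in wild type and 13.8 and 4.04 in ApcMin/+, which relative to the median promoter put both ApcMin/+ libraries below both wild-type libraries (-0.82, SE 0.28, limma adjusted p = 0.868). Endog had 5.29 and 1.78 in wild type and 5.12 and 2.74 in ApcMin/+ (-0.66, SE 0.37). Neither passed the test, and the groups overlapped at Endog.

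**Figure D4:**
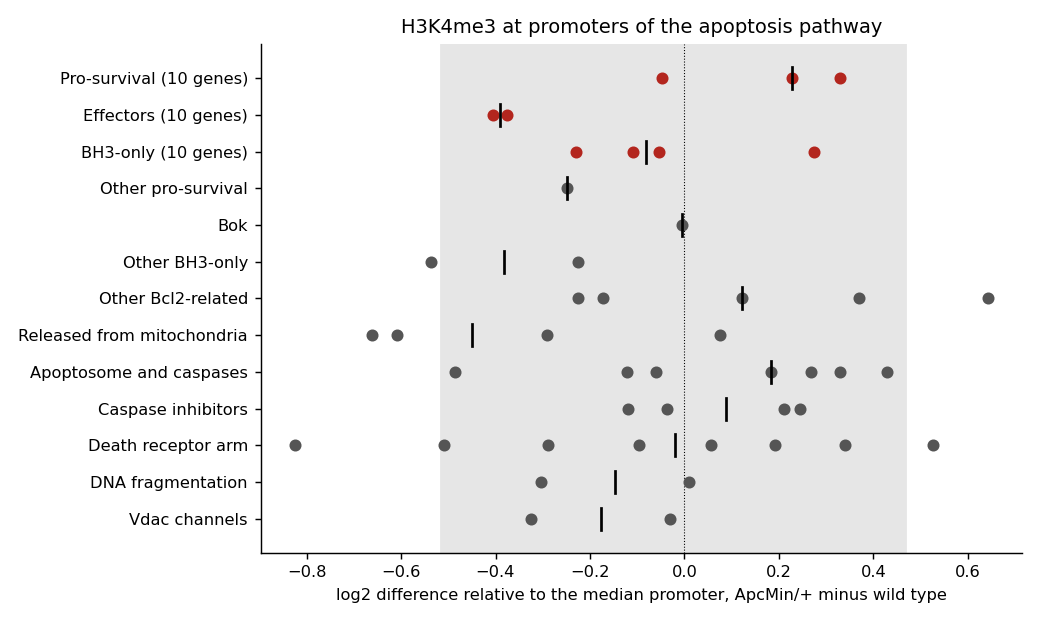
Difference in promoter H3K4me3 relative to the median promoter (ApcMin/+ minus wild type, log2) for the 9 tested members (red) and 36 other genes of the pathway (grey), 1 point per gene, by list, with the median of each list as a short black line. The band spans the 5th to 95th percentiles of all tested promoters; Ripk1 is the lowest point at -0.82 and Bcl2l15 the highest at 0.64, and no gene passed the test.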

How the data were processed

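H3K4me3 CUT&RUN libraries of villus cells from wild-type and ApcMin/+ mice (2 each) were grouped by genotype as the labels give it. The members and gene lists were chosen with earlier results of these data known. Libraries for other marks, without antibody, of RNA and of older animals are not analysed here, and no background from controls is given.

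The submitters' processing notes name Bowtie2, Picard and HOMER with mm10. The deposited values are signal, the coverage per base of fragments of 150 to 500 bp that the authors scaled to 10000000 tags per library. Count models do not apply to such values. The number of fragments at a promoter is its summed signal over the track sum per tag. Counting error was greatest in the first wild-type library, with 13 fragments at the median tested promoter.

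Signal was averaged within 1000 bp of gene 5′ ends (GENCODE M21). Promoters averaging a signal of 2 or more were tested with limma 3.58.1 (trend, R 4.3.3) on log2(signal + 1), which understates changes at low signal, with Benjamini-Hochberg adjustment over 9930 promoters and a threshold of 0.05, and the code was tested on simulated data. Differences relative to the median promoter used the same fit after each library was centred on its median. Regions joined bins of 100 bp across gaps of 500 bp and had to span 300 bp. All 10 members are named. From the pathway lists, the 2 highest and 2 lowest differences relative to the median promoter are named, besides neighbours whose windows overlap a member. Alternatives changed the scaling, pseudocount, filter, window, start site and replicate block, and left out each library. Sequences are from RefSeq on GRCm38. Python 3.11.15, numpy 2.4.6, pandas 2.3.3 and matplotlib 3.10.9 were used for the rest.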

Additional observations from a re-analysis of the deposited data

How the results depend on the processing

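The number of members past the threshold (limma, Benjamini-Hochberg) was 0 under each alternative that kept all 4 libraries, and 0 to 5 when a library was left out, with 5 without ApcMin/+ replicate 2. Over all promoters, the test called 0 as deposited, 5 higher and 7 lower when centred, 2 higher after quantile normalization, 5 higher and 8 lower when centred at the start of highest signal, and 6475 higher and 4 lower without ApcMin/+ replicate 2. The median difference over the members was 0.80 and kept its sign under the other pseudocounts, windows, start sites, the background scaling and the absence of a filter (0.56 to 1.05). Leaving out a library, it ranged from -0.07 to 1.63. Centred on the median promoter or after quantile normalization it was -0.05, and with the start of highest signal as well, an alternative chosen after seeing the data, -0.17. Both ApcMin/+ libraries exceeded both wild-type libraries at 2 of 9 members as deposited, at 1 when centred and at 5 with a window of 500 bp (37.0% of all promoters tested at that window).

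Directions of single members depended on the scaling. Centred on the median promoter, with or without the replicate block, and, after seeing the data, without a filter, the difference turned to -0.047 at Bcl2, -0.23 at Bcl2l11, -0.054 at Bid, -0.38 at Bax, -0.41 at Bak1 and -0.11 at Bad, and to -0.81 at Bbc3 where no filter was used. Under quantile normalization it was -0.25 at Bcl2l11, -0.055 at Bid, -0.33 at Bax, -0.37 at Bak1 and -0.20 at Bad. Centred at the start of highest signal it was -0.19 at Bcl2, -0.28 at Bcl2l11, -0.083 at Bid, -0.19 at Bbc3, -0.30 at Bax, -0.22 at Bak1 and -0.14 at Bad. Without ApcMin/+ replicate 1 it was -0.030 at Bcl2l11, -0.031 at Bid, -0.24 at Bad and -0.40 at Bak1, and without wild-type replicate 2 -0.24 at Bak1. Leaving out a library with centring, it turned to -0.37 and -0.25 at Bcl2, -0.12 and -0.068 at Bcl2l1, -0.81 and -0.76 at Bax, -0.87, -0.53 and -0.28 at Bak1, -0.27 and -0.16 at Bid, -0.37 and -0.22 at Bad, and -0.38, -0.30, -0.16 and -0.081 at Bcl2l11. Over all these settings without a library the difference reached 0.82 at Bax, 1.22 at Bcl2, 1.28 at Bcl2l11, 1.30 at Bak1, 1.63 at Bid, 1.73 at Bad and 2.10 at Bcl2l1, and it ranged from 0.0092 to 2.04 at Mcl1 and from 0.12 to 1.93 at Pmaip1. The causes were not tested.

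The libraries share only a replicate number (across the 9930 promoters, the deviations of same-numbered libraries from their group means correlated at 0.196). With the replicate block as deposited, 0 members and 1 of 9930 promoters passed the test, and the median over the members was 0.80. With the block and centred, 0 members passed, 5 promoters were called higher and 10 lower, and the median over the members was -0.05.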
